A study of Mus musculus with 6 samples.

Results

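The 77 histone genes described here are the rows of the deposited table whose mouse gene symbol starts with Hist1h to Hist4h, H2af, H3f3 or H1f. They are 77 of 25978 genes. Symbols were taken by Ensembl identifier, and 91 genes of the annotation carry such a symbol. The names starting with Hist make up 61 of the 77 and are called replication-dependent below. The other 16 are called variant genes, and 11 of them code for protein. The variant group also holds pseudogenes (H2afy3, H3f3a-ps1, H3f3a-ps2 and H3f3c) and H3f3aos, an RNA antisense to H3f3a. Among the replication-dependent names, Hist1h2al is annotated as a processed pseudogene and the other 60 as protein-coding genes.

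RNA came from sorted YFP-positive cells of primary pancreatic tumours, in 3 libraries of EpCAM+ cells and 3 of EpCAM- cells. The series describes them as biological replicates, each from a primary tumour. All 6 libraries were made from KPCY mice of C57BL/6 background aged between 5 and 7 weeks. In these animals Pdx1-Cre, a recombinase driven by a pancreatic promoter, deletes the floxed Trp53 alleles (Trp53fl/fl) and switches on YFP from the Rosa26 locus, in both groups alike. EpCAM is an adhesion protein on the surface of epithelial cells, so the comparison asks which genes differ between tumour-derived cells with and without it. Pdx1-Cre marks the pancreatic lineage as a whole, so YFP does not by itself tell tumour cells from normal pancreatic cells. Values are normalised log2 levels and carry no record of sequencing depth. In bulk RNA, fewer cells of a type and less RNA per cell cannot be told apart.

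Histones are the proteins that DNA is wound on. Core histones H2A, H2B, H3 and H4 form the nucleosome and the linker histone H1 binds where DNA enters and leaves it. Replication-dependent histone genes lie in clusters, have no introns as a rule, and are transcribed in S phase to package newly copied DNA. Their mRNAs are known to end in a conserved stem-loop, bound by the protein SLBP, in place of a poly(A) tail. Variant histones such as H3.3, H2A.Z and macroH2A come as a rule from genes outside these clusters, whose mRNAs carry poly(A) tails and are made throughout the cell cycle. Per the labels, the library kit was KAPA mRNA HyperPrep, which selects poly(A) RNA. The levels given here are therefore those of histone RNA that such a kit recovers, and the share of each gene's RNA that ended in a stem-loop was not tested.

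The stem-loop is the feature that sets the replication-dependent mRNAs apart, so its sequence is shown for the 7 replication-dependent genes with the element that had the highest mean levels and for H2afx, the variant gene with the same element. Transcripts of the GENCODE M21 annotation (build GRCm38) were searched downstream of the stop codon, on the transcribed strand, for GG, any 3 bases, TT, any base, T, any base, A, any 3 bases and CC, with the outer 6 bases of each side complementary. Capitals mark the 16 bases of the stem-loop and lower case its neighbours, each read from 5′ to 3′ on the strand of the gene.

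Hist1h1c: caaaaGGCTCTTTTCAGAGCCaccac
Hist1h2ap: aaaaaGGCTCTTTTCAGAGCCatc
Hist2h2aa2: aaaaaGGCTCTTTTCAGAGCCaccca
Hist3h2a: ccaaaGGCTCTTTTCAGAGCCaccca
Hist2h3c2: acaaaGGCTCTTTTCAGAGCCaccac
Hist1h4h: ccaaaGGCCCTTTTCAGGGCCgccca
Hist1h4i: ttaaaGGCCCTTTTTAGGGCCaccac
H2afx: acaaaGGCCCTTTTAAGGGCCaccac

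The Hist1h1c element lies at chr13:23739512-23739527 on the plus strand, 25 bases past the stop codon. That of Hist1h4i lies at chr13:22040966-22040981 on the minus strand, 31 bases past it, and that of H2afx at chr9:44335240-44335255 on the plus strand. All are in the 3′ UTR. These letters were found in 43 of the 60 replication-dependent coding genes, between 22 and 59 bases past the stop codon. Of the others, 11 have no annotated 3′ UTR or one too short to hold them, and 6 have a longer one in which this exact form was not found. Over all 21189 coding genes with an annotated 3′ UTR, 0.288% held the element. The stem differed by class. All 12 replication-dependent H4 genes with the element began it with GGCCC or GGTCC, while all replication-dependent H1, H2A, H2B and H3 genes with it began it with GGCTC. In the variant gene H2afx it begins with GGCCC. Its most frequent form, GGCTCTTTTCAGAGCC, was shared by 23 genes.

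Most replication-dependent genes were near the floor of the table, and a few stood far above it. Values of a group are given below in the order of replicates 1, 2 and 3. The deposited log2 level, averaged over the 6 libraries, was under 6 for 54 of the 61. The test was run on genes whose back-transformed values averaged 10 or more, and 23 replication-dependent genes passed this filter. The 38 that did not pass had mean log2 levels between -1.09 and 3.18. Among these, the EpCAM- minus EpCAM+ difference lay between -0.30 and 0.63, and 7 of them had values identical to those of some other gene. Spread at such low levels was small in this table, with a median SD over libraries of 0.161 for genes between 0 and 2 and of 0.594 for genes between 4 and 6, so small differences of low genes carry little information.

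Of 20 tested replication-dependent core histone genes, 10 were higher in EpCAM- libraries and 0 lower, and none of the 3 tested H1 genes was called. The annotated pseudogene Hist1h2al is counted among the 20 and the 10. Of the 22 tested coding genes, H1 included, 9 rose and 0 fell, with a median log2 fold change of 0.69. Of the 23 tested members, 10 rose, 0 fell and 13 were not called in limma, at a Benjamini-Hochberg adjusted p under 0.05 over 15783 genes. Of all genes tested, 43.4% were called in either direction, 20.3% higher and 23.1% lower in EpCAM- libraries. Without adjustment, none of the 2 members with a negative difference had a p under 0.05. The median log2 fold change was 0.74 over the 23 members and 0.0043 over all tested genes. Of the members that passed, 3 did so through their level in 1 group only (Hist1h2ac, Hist1h2ae and Hist1h2ao), and Hist1h2ae is among the 10. Of the 20 members that passed in both groups, 9 rose and 0 fell. Without EpCAM+ replicate 1 and EpCAM- replicate 3, the libraries farthest from their group in fibroblast markers, 5 of 22 tested members rose and 0 fell. Of all 15758 genes tested under that alternative, 1909 rose and 2456 fell. That alternative was chosen after seeing the data.

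**Figure D1:**
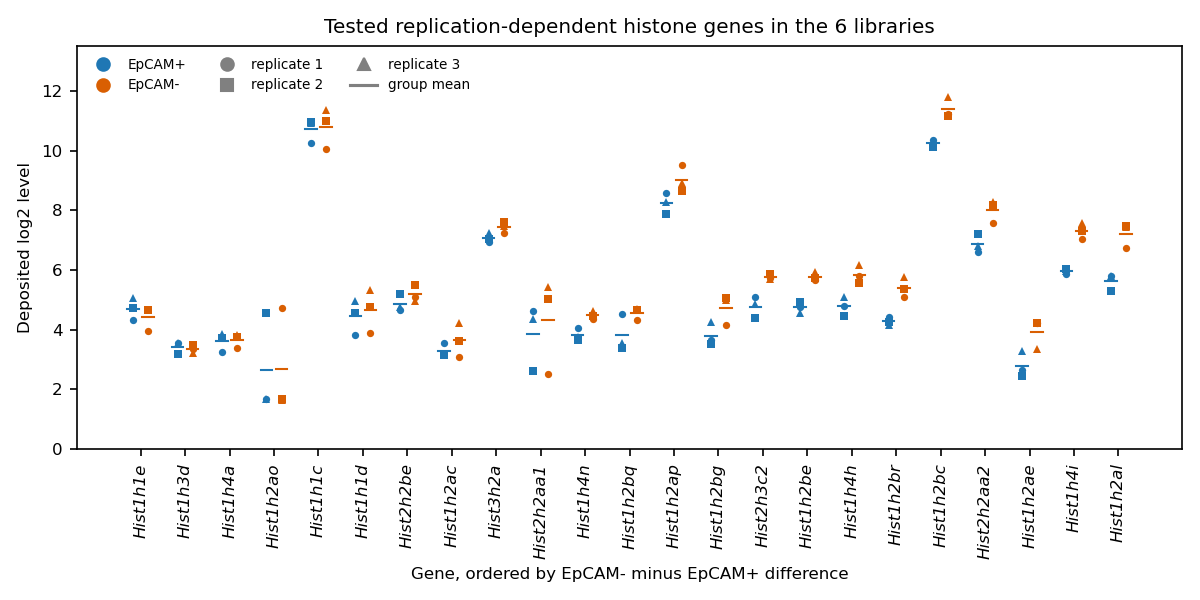
Deposited log2 level (vertical axis) of each tested replication-dependent histone gene in the 6 libraries, with EpCAM+ in blue, EpCAM- in orange, symbols for the replicate number and a bar at each group mean. Hist1h1c and Hist1h2bc stand above 10 in both groups, and the groups separate toward the right, where the difference is largest.

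H2B genes, whose product pairs with H2A in the nucleosome, rose in 3 of 6 tested cases, against 20.3% of all tested genes. Hist1h2bc (chr13:23684199-23692908) was the replication-dependent gene with the highest mean. Its log2 level was 10.37, 10.14 and 10.30 in EpCAM+ libraries and 11.22, 11.18 and 11.80 in EpCAM- libraries. The groups did not overlap. The log2 fold change was 1.13 ± 0.18 (SE), a 2.19-fold rise, with a limma adjusted p of 0.00234. It kept that call under all 15 alternatives, with log2 fold changes between 0.93 and 1.27.

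Hist1h2be, at 4.76, 4.93 and 4.56 in EpCAM+ and 5.66, 5.73 and 5.92 in EpCAM- libraries, rose by 1.02 ± 0.20 (SE, limma adjusted p = 0.00612). Its exons overlap those of Hist1h1e, so reads of the 2 genes may be mixed. Hist1h2br, at 4.41, 4.25 and 4.17 in EpCAM+ and 5.09, 5.35 and 5.78 in EpCAM-, rose by 1.12 ± 0.24 (SE, limma adjusted p = 0.00853). The groups overlapped for neither Hist1h2be nor Hist1h2br. The coding sequence of Hist1h2br is the same as that of Hist1h2bq, so reads may be split between them. Without EpCAM+ replicate 1 and EpCAM- replicate 3, the limma adjusted p was 0.0671 for Hist1h2be and 0.0521 for Hist1h2br. Hist1h2bg (0.94, limma adjusted p = 0.0554), Hist1h2bq (0.74, adjusted p = 0.115) and Hist2h2be (0.32, adjusted p = 0.330) were not called. Hist2h2be stood at 4.66, 5.19 and 4.74 in EpCAM+ and 5.10, 5.50 and 4.95 in EpCAM- libraries, with overlapping groups. Hist1h2bg passed without EpCAM- replicate 1 (adjusted p = 0.0168) and Hist1h2bq without EpCAM+ replicate 1 (adjusted p = 0.0184).

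H4 genes, which encode the partner of H3, rose in 3 of 4 tested cases, against 20.3% of all tested genes. Hist1h4i (chr13:22040636-22041362), whose stem-loop is shown above, had the largest log2 fold change of the coding members. Its log2 level was 5.88, 6.03 and 5.98 in EpCAM+ and 7.03, 7.32 and 7.59 in EpCAM- libraries, so the groups lay a full log2 unit apart. The log2 fold change was 1.35 ± 0.20 (SE), or 2.55-fold, with a limma adjusted p of 0.00172, and the call held under all 15 alternatives. Hist1h4h stood at 4.81, 4.45 and 5.09 in EpCAM+ and 5.79, 5.58 and 6.17 in EpCAM-, and rose by 1.06 ± 0.26 (SE, limma adjusted p = 0.0146). Without EpCAM+ replicate 1 and EpCAM- replicate 3 its adjusted p was 0.105. Hist1h4n, at 4.06, 3.66 and 3.76 against 4.35, 4.46 and 4.62, rose by 0.65 (limma adjusted p = 0.0408). Leaving out any 1 of EpCAM+ replicate 2, EpCAM+ replicate 3, EpCAM- replicate 2 and EpCAM- replicate 3 ended the Hist1h4n call, with adjusted p between 0.0884 and 0.120. Its coding sequence is the same as that of Hist1h4m, so reads may be split between the 2 genes. Hist1h4a did not differ beyond its spread (0.052, limma adjusted p = 0.885).

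H2A genes rose in 3 of 8 tested cases, against 20.3% of all tested genes. Among these 3 are the annotated pseudogene Hist1h2al and Hist1h2ae, which passed the filter through its level in 1 group only. Hist2h2aa2 (chr3:96239749-96240276) was at 6.59, 7.20 and 6.82 in EpCAM+ and 7.59, 8.18 and 8.29 in EpCAM- libraries. Its groups did not overlap, and it rose by 1.15 ± 0.25 (SE, limma adjusted p = 0.0101). The coding sequence of Hist2h2aa2 is identical to that of Hist2h2aa1, whose levels were 4.63, 2.61 and 4.34 in EpCAM+ and 2.50, 5.03 and 5.42 in EpCAM-, so the split of reads between them is uncertain. Without EpCAM+ replicate 1 and EpCAM- replicate 3 the adjusted p of Hist2h2aa2 was 0.0936.

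Hist1h2al, annotated as a processed pseudogene away from the main cluster (chr13:51202727-51203065), had levels of 5.80, 5.28 and 5.79 in EpCAM+ and 6.73, 7.46 and 7.43 in EpCAM-. It rose by 1.59 ± 0.27 (SE, limma adjusted p = 0.00341), the largest log2 fold change of any member. As a processed pseudogene it is a copy of another gene, so which locus its reads came from is uncertain. Hist1h2ae stood at 2.66, 2.43 and 3.27 in EpCAM+ and 4.22, 4.22 and 3.36 in EpCAM-, and rose by 1.15 ± 0.34 (SE, limma adjusted p = 0.0304). Leaving out EpCAM+ replicate 1 or 2 or EpCAM- replicate 1 or 2 ended the Hist1h2ae call, with adjusted p between 0.0749 and 0.0932, and array weights did so too (adjusted p = 0.0729).

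Among H2A genes that were not called, Hist1h2ap (chr13:21833026-21833507) was the most abundant, at 8.57, 7.89 and 8.29 in EpCAM+ and 9.53, 8.64 and 8.90 in EpCAM- libraries. Its groups did not overlap, but its log2 fold change of 0.77 ± 0.27 (SE) had a limma adjusted p of 0.0562. Hist1h2ap passed without EpCAM- replicate 2 (limma adjusted p = 0.0363), with TMM scaling (adjusted p = 0.0474), with quantile normalisation (adjusted p = 0.0196) and with array weights (adjusted p = 0.0450). Hist1h2ao, with the same coding sequence as Hist1h2ap, was at 4.56 in EpCAM+ replicate 2 and 4.74 in EpCAM- replicate 1 and between 1.65 and 1.68 in the other 4 libraries, so its mean describes no library. Hist3h2a, at 6.95, 7.03 and 7.24 against 7.25, 7.60 and 7.49, had groups that just failed to overlap and was not called (0.37, limma adjusted p = 0.130), and its exons overlap those of Trim17.

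For H3 genes, Hist2h3c2 was the 1 of 2 tested members that rose, with levels of 5.09, 4.38 and 4.85 in EpCAM+ and 5.72, 5.86 and 5.70 in EpCAM- libraries. The log2 fold change was 0.99 ± 0.24 (SE, limma adjusted p = 0.0141), and the call held under all 14 alternatives in which it was tested. The other, Hist1h3d, was at -0.081 (limma adjusted p = 0.778). The remaining 10 H3 genes of the clusters were below the filter. Over all tested genes, 20.3% rose.

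Linker histone H1 genes differed by less than their spread. None of the 3 tested H1 genes was called. Hist1h1c (chr13:23738808-23740367), which encodes the linker histone H1.2, was at 10.26, 10.96 and 10.95 in EpCAM+ and 10.05, 11.01 and 11.37 in EpCAM- libraries. Its groups overlapped and its log2 fold change of 0.090 ± 0.36 (SE, limma adjusted p = 0.860) changed sign in 3 of the 6 runs that left out 1 library. Hist1h1c, Hist1h1d and Hist1h1e each had their lowest level of a group in replicate 1, in both groups. For Hist1h1d, replicate 1 stood at 3.82 in EpCAM+ and 3.89 in EpCAM-, and replicates 2 and 3 between 4.56 and 5.35. For Hist1h1e, replicate 1 stood at 4.32 and 3.97, and replicates 2 and 3 between 4.65 and 5.06. The difference between an H1 gene and a core gene was not tested.

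**Figure D2:**
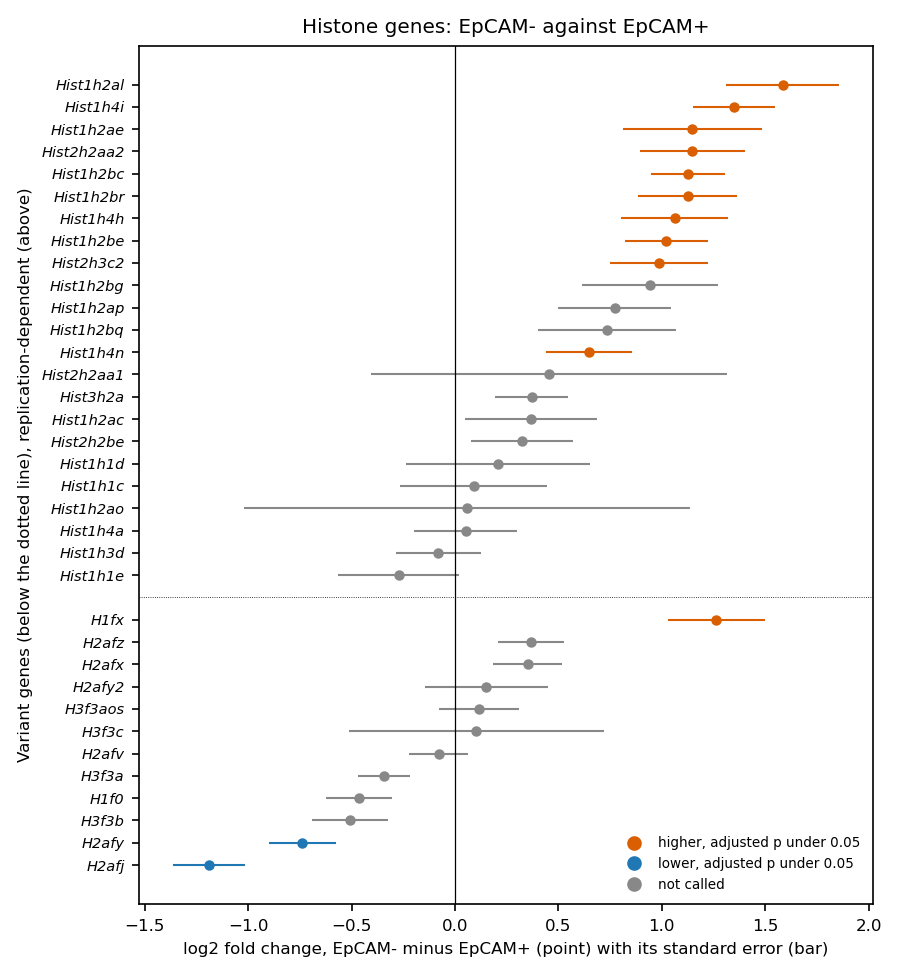
Log2 fold change (horizontal axis, EpCAM- minus EpCAM+) with its standard error for the 23 tested replication-dependent genes and the 12 tested variant genes. Orange points passed the test as higher, blue as lower and grey did not pass. All 10 calls of the replication-dependent genes are higher, while the variant genes have 1 higher and 2 lower.

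Sums by class compare libraries within a class. They were not divided by gene length and come from a kit that selects poly(A) RNA, so they do not rank the classes by RNA amount. Back-transformed values of the coding members of a class were added up in each library and divided by the library's total, in ppm. H2B sums were 55.5, 45.9 and 52.5 ppm in EpCAM+ libraries and 96.2, 95.3 and 147 in EpCAM- libraries. The H2A sums were 25.9, 21.2 and 24.6 against 43.9, 36.8 and 42.1. For H4 the sums were 5.77, 5.66 and 6.45 against 9.73, 11.1 and 13.6. All EpCAM- libraries lay above all EpCAM+ libraries in these classes. H3 sums also separated the groups, at 2.89, 2.23 and 2.82 against 3.72, 3.89 and 3.76. In H1 the sums overlapped, at 48.2, 73.9 and 77.5 against 41.0, 79.3 and 106. These sums rest on few genes. Hist1h1c and Hist1h2bc together held between 66.1% and 77.0% of the replication-dependent sum in each library. Without these genes, the replication-dependent sum was still higher in every EpCAM- library, at 65.9, 63.0 and 71.7 ppm against 41.3, 36.2 and 41.6. These are descriptions with no test.

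**Figure D3:**
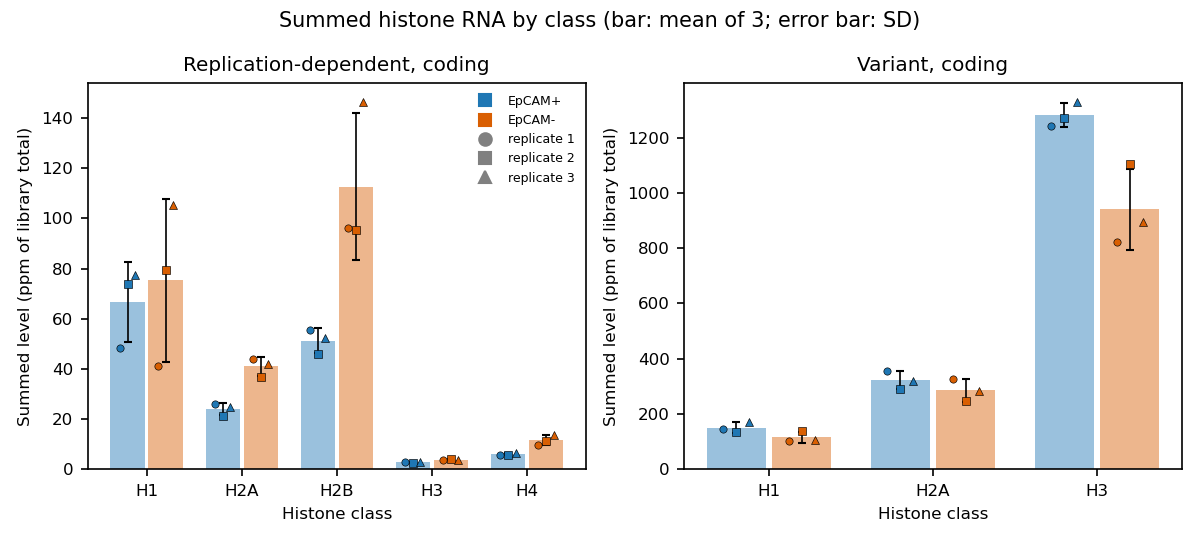
Summed back-transformed level in ppm of the library total (vertical axes) by histone class, with bars at the mean of 3 libraries, error bars for the SD and symbols for single libraries. In the left panel, EpCAM- bars are higher for H2A, H2B, H3 and H4, and in the right panel the variant H3 sum is lower in every EpCAM- library.

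Variant genes moved in both directions. Of 12 tested variant genes, 1 rose, 2 fell and 9 were not called, against 20.3% of all genes higher and 23.1% lower. All 11 coding variant genes but H1foo, the oocyte linker histone, passed the filter. Groups did not overlap for 5 variant genes in the lower and 1 in the higher direction, a pattern shown by 29.2% and 27.1% of all tested genes. Without EpCAM+ replicate 1 and EpCAM- replicate 3, 1 of 11 tested variant genes rose and 1 fell, and of all 15758 tested genes 1909 rose and 2456 fell. Without EpCAM- replicate 2, 1 variant gene rose and 4 fell, and of all 15755 tested genes 2763 rose and 3308 fell.

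H2afj, which encodes the H2A variant H2A.J, fell most. It was at 9.90, 9.88 and 10.09 in EpCAM+ and 9.08, 8.45 and 8.76 in EpCAM- libraries (chr6:136808244-136810074). Every EpCAM- library lay below every EpCAM+ library. The log2 fold change was -1.19 ± 0.17 (SE, limma adjusted p = 0.00164), and the call held under all 15 alternatives, between -1.35 and -1.03. H2afy (chr13:56073619-56136361) encodes macroH2A1, a histone with a large extra domain that is enriched on silent chromatin. Its level was 11.78, 11.75 and 11.77 in EpCAM+ and 11.37, 10.73 and 10.99 in EpCAM-, a fall of -0.74 ± 0.16 (SE, limma adjusted p = 0.00953). Without EpCAM+ replicate 1 and EpCAM- replicate 3, H2afy was at -0.71 with an adjusted p of 0.0792. The other macroH2A gene, H2afy2, was much lower, with 16.3 against 512 per 1000 exonic bases for H2afy in EpCAM+ libraries on the back-transformed scale. H2afy2, at 5.15, 4.70 and 5.48 against 5.69, 5.19 and 4.92, did not differ between groups beyond its spread (0.15, limma adjusted p = 0.715).

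H1fx, a linker histone variant (chr6:87980421-87981637), was the variant gene that rose. Its log2 level was 6.25, 5.66 and 5.95 in EpCAM+ and 7.52, 7.03 and 7.10 in EpCAM- libraries, and the groups lay apart. It rose by 1.26 ± 0.23 (SE, limma adjusted p = 0.00458), or 2.40-fold, and kept that call under all 15 alternatives. The exons of H1fx overlap those of Gm47286 on the same strand and Gm5577 on the other, so reads may be mixed. Of the 12 tested variant genes, 8 have exons that overlap another gene. H1f0, the linker histone known for its high level in cells that have stopped dividing, was at 11.87, 11.84 and 12.12 against 11.32, 11.79 and 11.32. Its difference of -0.46 ± 0.16 (SE) had a limma adjusted p of 0.0517, just outside the threshold, and it passed without EpCAM- replicate 2 (adjusted p = 0.0111).

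H3.3, the replacement form of H3 laid down outside S phase, is encoded by H3f3a and H3f3b, and neither gene was called although both separated the groups. H3f3b (chr11:116021912-116027962), the most abundant histone gene in the table, was at 14.64, 14.85 and 14.80 in EpCAM+ and 14.01, 14.59 and 14.17 in EpCAM- libraries. Its log2 fold change was -0.51 ± 0.18 (SE, limma adjusted p = 0.0619). H3f3a was at 12.81, 12.46 and 12.71 against 12.42, 12.29 and 12.22, with -0.34 ± 0.13 (SE, limma adjusted p = 0.0624). All 3 EpCAM- libraries were below all EpCAM+ libraries for both genes. H3f3b passed without EpCAM- replicate 2 (adjusted p = 0.0195), and H3f3a without EpCAM+ replicate 2 (adjusted p = 0.0381) or EpCAM- replicate 1 (adjusted p = 0.0481). Per 1000 exonic bases, back-transformed levels in EpCAM+ libraries were 9359 for H3f3b and 1853 for H3f3a. The H3 gene of the clusters with the highest mean, Hist2h3c2, stood at 27.4 on that scale. The kit selects poly(A) RNA and can miss RNA that ends in a stem-loop, so these values do not compare total RNA of the genes. The pseudogene H3f3c, at 9.08, 7.68 and 7.97 against 9.55, 7.21 and 8.28, spread widely within groups (0.10, limma adjusted p = 0.908). The antisense RNA H3f3aos overlaps H3f3a, stood at 3.47, 3.24 and 3.16 against 3.33, 3.49 and 3.40 and was not called (0.12, limma adjusted p = 0.662).

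Genes of the remaining H2A variants were not called. H2afz, which encodes H2A.Z, a variant found at promoters of active genes, was at 11.68, 11.21 and 11.35 in EpCAM+ and 11.98, 11.58 and 11.78 in EpCAM-, a difference of 0.37 ± 0.16 (SE, limma adjusted p = 0.105). Its paralogue H2afv was at 9.99, 9.65 and 9.53 against 9.66, 9.72 and 9.56, with -0.079 (limma adjusted p = 0.688). H2afx, whose product is phosphorylated at DNA breaks, was at 9.05, 8.61 and 8.93 against 9.40, 9.25 and 9.0. The difference was 0.35 ± 0.17 (SE, limma adjusted p = 0.131). In each of these genes the groups overlapped.

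**Figure D4:**
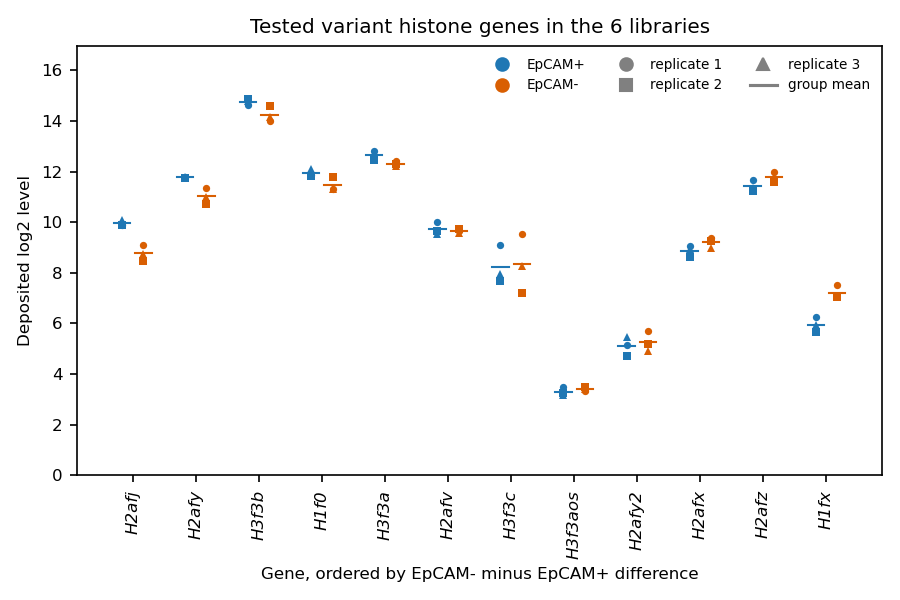
Deposited log2 level (vertical axis) of each tested variant histone gene, with EpCAM+ in blue, EpCAM- in orange, symbols for the replicate number and bars at group means. H2afj and H2afy at the left are lower in all 3 EpCAM- libraries and H1fx at the right is higher in all 3.

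The annotated 3′ end went with the deposited level of the replication-dependent genes, which was not divided by gene length here. A long 3′ end was taken as at least 100 bases past the stem-loop, or a 3′ UTR of at least 100 bases where no stem-loop was found. Of 26 replication-dependent coding genes with a long end, 16 passed the filter on level, with a median mean log2 level of 3.55. Of 34 with a short end, 6 passed, with a median of 2.08. Longer gene models collect more reads for the same number of molecules, and the part of this in the difference was not tested. Exceptions ran both ways. Hist1h2ap reached a mean of 8.64 with an annotated transcript that ends 3 bases past the stem-loop, and Hist4h4, whose model runs 2445 bases past it, had a mean of 1.75. The transcript of Hist1h1c runs 840 bases past its stem-loop, and in that of Hist1h2bc, with a 3′ UTR of 742 bases, the letters were not found. Of tested genes with a long end, 6 of 16 rose, and of those with a short one, 3 of 6, against 20.3% of all tested genes.

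**Figure D5:**
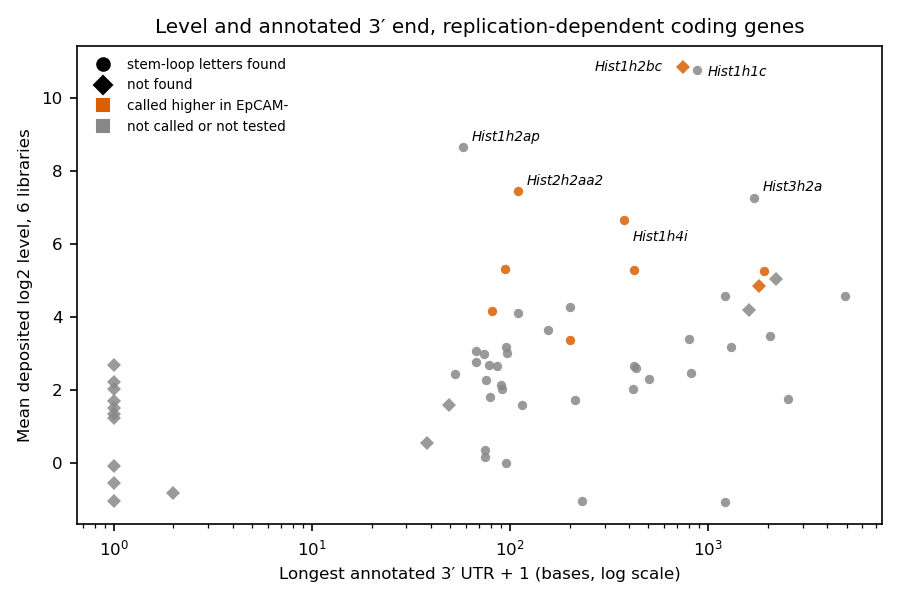
Mean deposited log2 level over 6 libraries (vertical axis) against the longest annotated 3′ UTR plus 1 base (horizontal log axis) for the 60 replication-dependent coding genes, with circles where the stem-loop letters were found, diamonds where they were not and orange for genes that rose. Genes without an annotated 3′ UTR sit at the far left, at most at 2.67, and Hist1h2bc and Hist1h1c lie highest.

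Many H2A and H2B genes of the clusters sit head to head and share the stretch between their start sites, so their promoters bear on whether members move together. In the table, 9 such pairs had start sites within 500 bases, all of an H2A and an H2B gene, and in 4 pairs both genes were tested. In none of the 4 were both called, and 3 of the 4 hold a gene that passed the filter through 1 group only (Hist1h2ac, Hist1h2ae or Hist1h2ao). In the pair of Hist1h2ae and Hist1h2bg the differences were 1.15 and 0.94, and in that of Hist1h2ap and Hist1h2br they were 0.77 and 1.12. The pair of Hist1h2bq and Hist1h2ao had 0.74 and 0.060. Hist1h2bq has the same coding sequence as Hist1h2br, and Hist1h2ao as Hist1h2ap, so reads may be split between these pairs. In the pair of Hist1h2ac and Hist1h2bc, 251 bases apart, the levels per 1000 exonic bases were 3.93 and 1070.0 in EpCAM+ and 5.29 and 2381 in EpCAM- libraries on the back-transformed scale. Hist1h2ac was not called (0.37, limma adjusted p = 0.392) while Hist1h2bc rose.

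RefSeq promoters of build GRCm38.p6, from 250 bases before to 50 after the start, were matched for 55 of the 60 replication-dependent coding genes and 10 of the 11 variant coding genes. They were searched on both strands for ATTTGCAT, the octamer bound by Oct-1, for CCAAT and for TATAAA, none of which contains another. Below are the promoter shared by Hist1h2ae and Hist1h2bg, which contains all of these motifs, that shared by Hist1h2ap and Hist1h2br, and that of Hist1h4i, the coding gene with the largest rise. Capitals mark matches to the 3 motifs on either strand.

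Hist1h2ae, chr13:23571171-23571470, minus strand: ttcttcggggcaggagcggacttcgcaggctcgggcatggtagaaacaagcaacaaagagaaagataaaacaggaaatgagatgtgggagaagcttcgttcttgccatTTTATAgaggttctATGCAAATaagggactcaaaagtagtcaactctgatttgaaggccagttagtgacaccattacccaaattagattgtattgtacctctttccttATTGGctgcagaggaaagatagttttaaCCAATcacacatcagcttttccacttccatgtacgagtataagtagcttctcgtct
Hist1h2ap, chr13:21833426-21833725, minus strand: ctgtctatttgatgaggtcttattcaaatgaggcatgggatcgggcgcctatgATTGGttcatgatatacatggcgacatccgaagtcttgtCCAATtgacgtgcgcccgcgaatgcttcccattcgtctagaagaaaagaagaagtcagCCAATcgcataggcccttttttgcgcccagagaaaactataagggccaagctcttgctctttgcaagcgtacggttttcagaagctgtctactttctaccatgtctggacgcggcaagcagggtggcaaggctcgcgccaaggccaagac
Hist1h4i, chr13:22041313-22041612, minus strand: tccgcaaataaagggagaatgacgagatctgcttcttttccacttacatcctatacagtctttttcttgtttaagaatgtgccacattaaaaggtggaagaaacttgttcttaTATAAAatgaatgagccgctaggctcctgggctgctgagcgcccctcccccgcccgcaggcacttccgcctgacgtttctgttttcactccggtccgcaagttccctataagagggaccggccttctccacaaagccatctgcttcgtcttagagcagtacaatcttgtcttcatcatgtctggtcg

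The octamer was found in 4 of 12 H2B promoters and 5 of 15 H2A promoters, in 0 of the 28 promoters of other replication-dependent genes, in 1 of 10 variant promoters and in 1.74% of all 32851 promoters of the table. Head-to-head genes share these letters, so their promoters are not independent. The H2B genes Hist1h2bc and Hist2h2be had no matched promoter of their own and are not among the 12. CCAAT was found in all 12 H2B and all 15 H2A promoters, in 19 of the 28 others, in 7 of 10 variant promoters and in 37.4% of all promoters. TATAAA was found in 30 of the 55 replication-dependent promoters, in 1 of 10 variant promoters and in 13.6% of all. A match describes letters in this window and is not evidence of binding.

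Genes that make, process and carry histones were taken from lists of the known pathway. For histone gene transcription and pre-mRNA processing, of 31 tested members, 7 rose, 4 fell and 20 were not called, with a median log2 fold change of 0.15. Over all tested genes 43.4% were called, 20.3% as higher and 23.1% as lower, and the median was 0.0043. Levels of named genes are given for EpCAM+ against EpCAM- libraries. Slbp, which encodes the stem-loop binding protein, was at 10.03, 9.92 and 9.81 in EpCAM+ and 10.68, 10.66 and 10.74 in EpCAM- libraries and rose by 0.77 ± 0.099 (SE, limma adjusted p = 0.000879). Npat, the co-activator of histone genes in S phase, stood at 9.87, 9.84 and 9.54 against 10.02, 10.51 and 10.46 and rose by 0.58 ± 0.17 (SE, limma adjusted p = 0.0277). Npat was no longer called when any replicate 2 or 3 of either group was left out (limma adjusted p between 0.0562 and 0.0982). E2f1, a transcription factor of S phase entry, stood at 7.65, 7.60 and 7.36 against 9.44, 8.92 and 9.06 and rose by 1.60 ± 0.18 (SE, limma adjusted p = 0.000447). Its relative E2f3 stood at 9.69, 9.20 and 8.93 against 10.33, 9.90 and 10.25 and rose by 0.88, with a limma adjusted p of 0.0152 that became 0.0510 without EpCAM+ replicate 2 or 3. The groups did not overlap for any of these genes. Coil, which encodes the coilin of Cajal bodies, stood at 7.51, 7.44 and 7.64 against 6.66, 6.34 and 6.84 and fell by 0.91 on the log2 scale (limma adjusted p = 0.00729). Nfyb, a CCAAT-binding subunit, fell by 0.69 on that scale (adjusted p = 0.00247). Lsm11, a part of the U7 particle that cuts histone pre-mRNA, was not called (0.15, limma adjusted p = 0.507). The count for this list fell from 11 to 5 without EpCAM+ replicate 3 and to 6 without EpCAM+ replicate 2 or EpCAM- replicate 3. Calls over all genes fell as well, from 6850 to 4953, 5565 and 5716 in these runs.

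For histone chaperones, of 35 tested members, 8 rose, 2 fell and 25 were not called, with a median of 0.22, where 20.3% of all tested genes rose and 23.1% fell. Asf1b, the H3-H4 chaperone of dividing cells, stood at 6.92, 6.84 and 6.82 against 8.67, 7.85 and 8.11 and rose by 1.35 ± 0.23 (SE, limma adjusted p = 0.00315). Ipo4, which imports H3 and H4 into the nucleus, stood at 10.68, 10.98 and 10.90 against 12.08, 11.69 and 11.81 and rose by 1.01 ± 0.14 (SE, limma adjusted p = 0.00119). Chaf1a, the large subunit of the replication-coupled assembly factor CAF-1, stood at 9.21, 8.96 and 8.75 against 10, 9.87 and 9.65 and rose by 0.87 ± 0.16 (SE, limma adjusted p = 0.00440). The gene of its partner subunit, Chaf1b, was not called, with a log2 fold change of -0.36 (adjusted p = 0.136) and overlapping groups. Anp32e, which removes H2A.Z, stood at 10.83, 10.69 and 10.70 against 11.86, 11.31 and 11.70 and rose by 0.88 ± 0.15 (SE, limma adjusted p = 0.00342). The 2 chaperone genes that fell were Tonsl (-0.48, limma adjusted p = 0.00736) and the H3.3 chaperone Daxx (-0.42, adjusted p = 0.0319), which stood at 9.69, 9.52 and 9.59 against 9.30, 9.25 and 8.99. Hira, of the other H3.3 deposition complex, stood at 10.29, 10.37 and 10.36 against 10.30, 10.01 and 10.11 and was not called (-0.20, limma adjusted p = 0.170). Of the same complex, Ubn1 rose by 0.41 (limma adjusted p = 0.0393) and lost that call under 7 of 15 alternatives. Cabin1 was not called (-0.33, adjusted p = 0.128). Without any 1 EpCAM+ library or without EpCAM- replicate 3, between 5 and 6 chaperone genes passed in place of 10, and Daxx was not among those called. Over all genes, between 4953 and 5716 passed in these runs in place of 6850.

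For S phase and proliferation, of 34 tested members, 14 rose, 1 fell and 19 were not called, with a median of 0.45. Of all tested genes, 43.4% were called, 20.3% as higher and 23.1% as lower. Ccne2, which encodes cyclin E2, stood at 6.13, 5.66 and 6.03 against 8.29, 7.57 and 8.18 and rose by 2.07 ± 0.25 (SE, limma adjusted p = 0.000661). Rrm2, a subunit of ribonucleotide reductase, stood at 8.33, 8.16 and 8.36 against 10.48, 9.66 and 9.72 and rose by 1.67 (limma adjusted p = 0.00117). In both genes the groups lay more than a log2 unit apart. The mitotic cyclin gene Ccnb1 stood at 9.10, 8.03 and 8.30 against 10.69, 9.85 and 9.73 and rose by 1.62 (limma adjusted p = 0.00898). Cdc45, a part of the replicative helicase, stood at 7.84, 7.66 and 7.69 against 9.41, 8.80 and 8.98 and rose by 1.33 (limma adjusted p = 0.00120). Top2a, the topoisomerase of dividing cells, rose by 1.28 (limma adjusted p = 0.0123). The cyclin A2 gene Ccna2 rose by 1.19 (limma adjusted p = 0.0172), and was not called without EpCAM+ replicate 2 (adjusted p = 0.0570) or 3 (adjusted p = 0.0613). Pcna and Mki67 were not called. The polymerase clamp gene Pcna stood at 10.77, 10.82 and 10.64 against 10.93, 10.92 and 10.87 (0.16, limma adjusted p = 0.200). Mki67, the Ki-67 gene, stood at 11.06, 11.16 and 11.40 against 11.53, 11.01 and 11.33 (0.085, limma adjusted p = 0.701). Gins2 was the member that fell (-0.49, adjusted p = 0.0117). The mean log2 level of this list was 9.20, 9.01 and 9.08 in EpCAM+ and 9.94, 9.38 and 9.58 in EpCAM- libraries. The part of S phase RNA in the histone differences was not tested.

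Markers of the sorted cells and of other cells moved with the groups. Over all tested genes, 20.3% were higher and 23.1% lower in EpCAM- libraries. Of 9 epithelial markers 9 were lower in EpCAM- libraries, among them Epcam, by whose protein the cells were sorted. Of 9 mesenchymal markers 8 were higher. Fibroblast markers were higher for 9 of 12 and lower for 1, with a summed level between 70.5 and 554 ppm in EpCAM+ and between 1474 and 6370 in EpCAM- libraries. Within EpCAM- it was lowest in replicate 3, and within EpCAM+ highest in replicate 1. Leukocyte markers were lower for 9 of 10 tested, with sums between 149 and 337 ppm in EpCAM+ and between 25.4 and 31.6 in EpCAM-, and the T cell marker Cd3e was between -1.51 and -1.40 in all libraries. Acinar markers were lower for 11 of 11, islet markers for 9 of 9 and erythroid and platelet markers for 1 of 2. Endothelial markers were higher for 1 of 3. Their part in the histone differences was not tested.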

How the data were processed

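RNA of sorted cells was measured in 6 libraries, 3 per group. The deposited table holds values that the authors normalised on a log2 scale. The submitters' processing notes name DESeq2 1.24.0, RSEM, STAR 2.5.2 and build GRCm38, without their roles. The transform, the annotation and the use of strand in counting are not given in the sources used here, and depth is unknown.

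Deposited log2 values entered limma 3.58.1 (R 4.3.3), fitted with a variance trend and no covariate on the 15783 genes whose back-transformed values averaged 10 or more. P-values are two-sided and adjusted by the Benjamini-Hochberg method at 0.05. A single value in 3 against 3 libraries cannot reach an exact permutation p under 0.1, so none was run. In simulated data for this comparison over 15783 genes, 38% of genes changed by 1 log2 unit and 74% of those changed by 2 were recovered, and 3.64% of calls were false. Only 50 genes were changed at each of 0.5, 1, 2 and 4 log2 units, whereas 43.4% of genes were called in the data. An adjusted p depends on the share of changed genes, so these recovered percentages need not hold for the data.

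Symbols and gene models came from GENCODE M21 (GRCm38), with 25846 identifiers matched. Members and lists were chosen with earlier results of these data known. Values in every library are given for tested variant genes, for the 12 replication-dependent genes highest in mean level and for those called, for the 4 called members of each pathway list that moved most and for some of the best-known members by role. The 3 pathway and 8 marker lists are reported by counts, with Ars2 and Spt2 not matched. Whether same-numbered libraries of the 2 groups came from the same tumour is not stated. A part of the genotype is not reported here.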

Additional observations from a re-analysis of the deposited data

How the results depend on the processing

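The alternatives were log2 of the value plus 1 or plus 5, no filter, a mean of at least 50, TMM scaling, quantile normalisation, a replicate block, array weights, leaving out each library, and, chosen after seeing the data, leaving out EpCAM+ replicate 1 and EpCAM- replicate 3 together. Over the named genes, 856 results kept their direction and side of the threshold, 62 lost a call, 35 gained one and 30 changed sign. Quantile normalisation moved the median of all genes to 0.13, and differences under it are relative to that shift.

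Called replication-dependent genes numbered 10, against 4 of 7 with a mean of at least 50, 14 with quantile normalisation, 5 with both libraries left out and 8 to 10 without 1 library. Called variant genes numbered 3, against 6 with quantile normalisation, 6 with array weights and 3 to 5 without 1 library. With the replicate block, 10 replication-dependent and 5 variant genes were called, and 7090 of all genes against 6850. Under the block Hist1h2ae (limma adjusted p = 0.0553) and Hist1h4n (0.0642) lost their calls, and Hist1h2ap (0.00885), Hist1h2bg (0.0391), H2afz (0.0283) and H3f3b (0.0418) gained one. Same-numbered libraries had correlations of deviations of 0.41, 0.044 and 0.16. EpCAM+ replicates 1 and 3 correlated best with their own number, and EpCAM+ replicate 2 better with EpCAM- replicate 3 (0.23). The labels name no pairing, so the numbers were not taken as pairs, and these values do not settle whether they are. All called genes numbered 4365 with both libraries left out and 4953 to 7329 without 1 library. They numbered 7449 with quantile normalisation and 8006 with array weights, of 15783 tested. With a mean of at least 50 they numbered 5937 of 12677, and with no filter 6934 of 25978. Chaperone calls numbered 10, against 6 with no filter, 5 with both libraries left out and 5 to 11 without 1 library. Calls for histone transcription and processing numbered 11, against 5 with both left out and 5 to 14 without 1 library. Calls for S phase genes numbered 10 to 21 without 1 library. Under quantile normalisation the log2 ratios of summed levels were 0.97 for H2A, 0.73 for H3 and 1.20 for H4, against 0.76, 0.51 and 0.93.

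Sign changes concerned genes that were not called. Under quantile normalisation H2afv was at 0.011, Hist1h1e at 0.040 and Hist1h3d at 0.13. With array weights H2afy2 was at -0.067, H3f3c at -0.052 and Hist1h2ao at -0.42. With both libraries left out H2afv was at 0.096, Hist1h1c at -0.42, Hist1h1d at -0.45, Hist1h3d at 0.039, Hist1h4a at -0.22 and Mki67 at -0.0097. Without 1 library the ranges were -0.17 to 0.054 for H2afv, -0.060 to 0.34 for H2afy2, -0.50 to 0.67 for H3f3c, -0.19 to 0.47 for Hist1h1c, -0.13 to 0.60 for Hist1h1d, -0.42 to 0.58 for Hist1h2ao, -0.13 to 0.19 for Hist1h4a, -0.17 to 1.36 for Hist2h2aa1 and -0.034 to 0.23 for Mki67. The cause was not tested. Depth is not recorded in the values, so its limit on low genes is unknown.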
